A study of Mus musculus with 12 samples.

Results

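The 10 genes of fatty acid binding, uptake and activation followed in mouse liver were the fatty acid binding proteins Fabp1, Fabp2, Fabp4 and Fabp5, the fatty acid transport proteins Slc27a2, Slc27a4 and Slc27a5, and the long-chain acyl-CoA synthetases Acsl1, Acsl3 and Acsl5. They were picked by gene name, as the non-control probes that carry these names in the scanner files. No measured value entered that rule, but the genes were chosen with earlier results of these data known. This gave 18 probes for 10 genes, of 41174 non-control probes in all, and the 10 genes stood among 14911 genes tested. Each gene had at least 1 measured probe. A probe counted as measured when any 1 group had a sample colour well above background on each of its 3 arrays, and 15 of the 18 probes did. The other 3 were 1 probe each of Fabp4 (A_52_P564544), Slc27a2 (A_52_P1083677) and Slc27a4 (A_51_P408609).

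RNA came from livers of male C57BL6/J mice on 12 two-colour Agilent arrays, in 4 groups of 3 arrays. Null mice lacking Cyp1b1, a cytochrome P450 of steroid and retinoid metabolism, received a diet with 60% fat (null high fat) or 10% fat (null low fat). Wild-type mice received the same diets (wild-type high fat and wild-type low fat), from weaning at 3 weeks until they were killed at 14 weeks. The sample was in Cy3 on each array and pooled wild-type low-fat liver was in Cy5, with no dye swap, so the reference is the wild-type low-fat group's own kind of RNA. Every array is labelled as 3 samples pooled, and whether the pools were of separate mice is not stated, so p-values measure only the spread between these arrays, and 3 arrays per group limit the precision. The label names hepatocytes, and 7 of 7 measured hepatocyte markers, Alb among them, were well above background on each array. So were 11 of 11 Kupffer cell and macrophage markers, and in such bulk RNA fewer cells of a type and less RNA per cell cannot be told apart.

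Long-chain fatty acids reach hepatocytes bound to albumin or from lipoproteins. Transport proteins of the Slc27a family aid their uptake, and acyl-CoA synthetases join them to coenzyme A, which traps them in the cell and commits them to oxidation or to ester synthesis. Fatty acid binding proteins carry the insoluble fatty acids through the cytosol. In rodent liver many of these genes are targets of the nuclear receptor PPAR alpha, which binds fatty acids and recognises a direct repeat in promoters.

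The probes of the 3 transporters are shown because they belong to 1 protein family and lie in similar sequence. In each, capitals mark the longest run of identical letters shared with either other probe. That run was 8 bases of 60 between Slc27a2 and Slc27a4 and 5 bases between Slc27a5 and either of them.
Slc27a2 probe A_52_P154971 (chromosome 2): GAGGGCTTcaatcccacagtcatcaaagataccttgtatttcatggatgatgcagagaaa
Slc27a4 probe A_52_P61854 (chromosome 2): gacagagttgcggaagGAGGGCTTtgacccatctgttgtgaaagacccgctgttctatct
Slc27a5 probe A_51_P289742 (chromosome 7): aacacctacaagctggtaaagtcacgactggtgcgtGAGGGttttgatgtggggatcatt

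Promoters are shown for the 2 members that hold letters of the receptor's motif. RefSeq windows on GRCm38.p6, from 250 bases before to 50 bases after a gene's start, were listed for 7 of the 10 genes in 8 windows, and Fabp4, Fabp5 and Slc27a5 were not listed. A direct repeat, AGGTCANAGGTCA, with up to 1 mismatch on either strand, was in 1 of the 8 windows, that of Fabp1, against 0.554% of 32851 windows of the same length. The single copy AGGTCA, which is part of that repeat, was in 2 of the 8, Fabp1 and Slc27a2, against 16.3% of all windows. The Fabp1 window lies on the plus strand at chr6:71199629-71199928, and capitals mark the repeat, which reads TGACCTATGGCCT and begins at position -67 from the gene's start. The Slc27a2 window lies on the plus strand at chr2:126552774-126553073, and capitals mark that copy. The windows of Fabp2, Slc27a4, Acsl1 (2 windows), Acsl3 and Acsl5 held neither set of letters.
Fabp1: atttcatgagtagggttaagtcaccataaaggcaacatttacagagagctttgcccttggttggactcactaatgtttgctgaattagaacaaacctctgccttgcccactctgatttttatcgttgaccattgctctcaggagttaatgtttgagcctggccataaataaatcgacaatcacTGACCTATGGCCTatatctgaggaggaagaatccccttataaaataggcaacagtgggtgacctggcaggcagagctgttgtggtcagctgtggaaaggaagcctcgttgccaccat
Slc27a2: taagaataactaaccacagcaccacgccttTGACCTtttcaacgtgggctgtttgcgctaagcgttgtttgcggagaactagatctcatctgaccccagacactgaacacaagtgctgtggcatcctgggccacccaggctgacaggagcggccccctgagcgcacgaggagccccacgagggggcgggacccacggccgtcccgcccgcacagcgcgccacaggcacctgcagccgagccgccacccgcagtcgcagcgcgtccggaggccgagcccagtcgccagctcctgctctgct

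The arrays were read in 3 scans on 4 slides, and the raw ratio of sample over reference followed the scan. Its median over all probes ran between 0.74 and 1.68 (log2) on the 6 arrays of scan 1, between -1.30 and -0.86 on the 4 of scan 2 and between -0.41 and 0.08 on the 2 of scan 3. Values below are therefore log2 ratios after background correction and loess within each array, and scan 3 held 2 wild-type arrays and no null array. In scan 1, null low-fat arrays 2 and 3 were alone on slide 2. Comparisons of null low-fat arrays within scan 1 are therefore also comparisons between slides. Loess did not remove the likeness of arrays by scan: deviations from the group means over all genes had a median r of 0.38 in 20 pairs of arrays of different groups within a scan, against -0.18 in 34 such pairs across scans. Between 18375 and 23439 probes per array had a sample colour well above background. The Cyp1b1 probe read 0.65 to 1.68 on the 6 arrays labelled null and -1.11 to 0.16 on the 6 wild-type arrays. No source used here places that probe inside or outside the deleted part, so it checks nothing about the labels, and null means labelled null throughout.

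**Figure D1:**
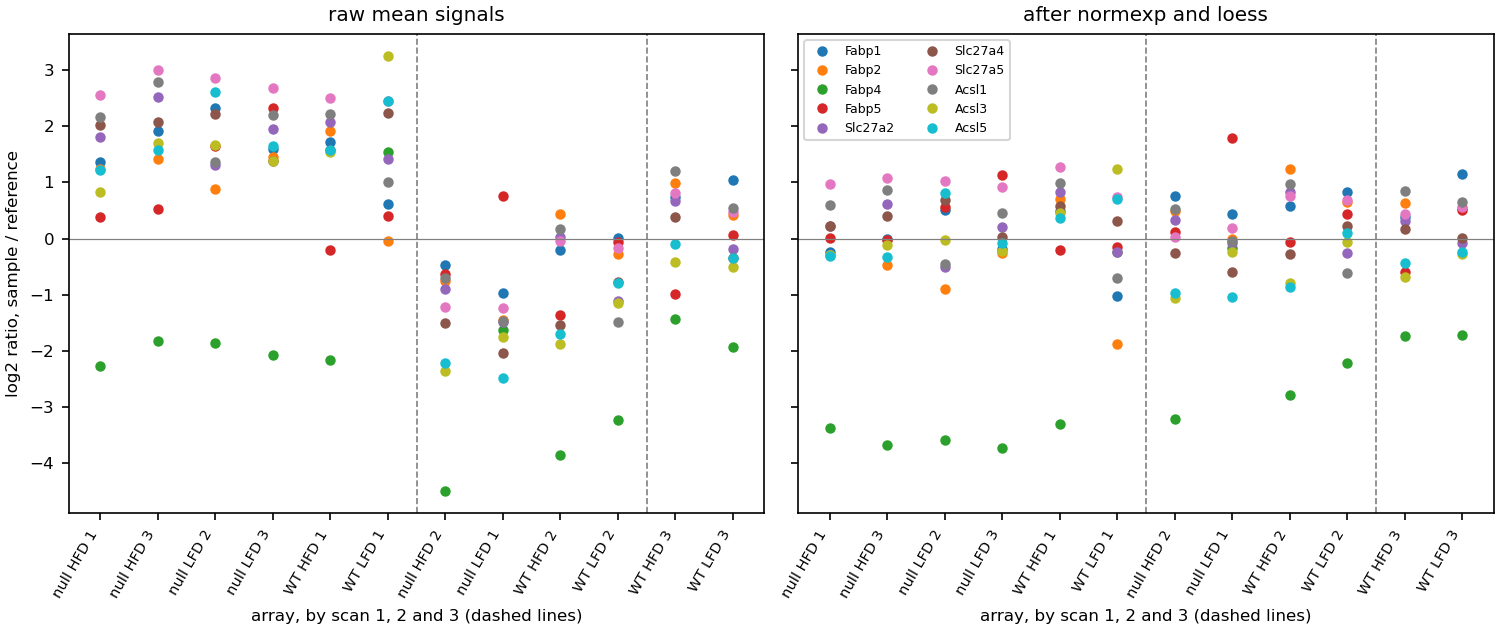
Log2 ratio of sample over reference (vertical) of the 10 genes, 1 colour each, on the 12 arrays sorted by scan (horizontal, dashed lines between scans), from raw mean signals at left and after normexp and loess at right. At left the points shift together by scan, while at right most lie near 0 in all 3 scans and the lowest points, down to -3.73, are Fabp4.

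No member passed limma's threshold, an adjusted p under 0.05 over all 14911 genes, in any of 7 comparisons. For null against wild-type this was 0 of 10 at low fat, where 0.0201% of all genes passed, 0 of 10 at high fat (0.0134%) and 0 of 10 over both diets (0.288%). For high against low fat it was 0 of 10 in null livers (0.00671%), 0 of 10 in wild-type livers (0.00671%) and 0 of 10 over both genotypes (0.0335%). The difference between the genotypes' diet responses gave 0 of 10 members and 0% of all genes. At an unadjusted p under 0.05 the genotype comparisons held 1 member at low fat (7.2% of all genes), 0 at high fat (2.57%) and 1 over both diets (8.4%). The diet comparisons held 2 in null livers (1.9%), 2 in wild-type livers (4.03%) and 3 over both genotypes (4.85%), and the interaction held 0 (0.899%). The 3 members behind the diet count were Slc27a2, Acsl1 and Fabp5, described in turn below, and Fabp5 was also the member in the genotype counts.

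**Figure D2:**
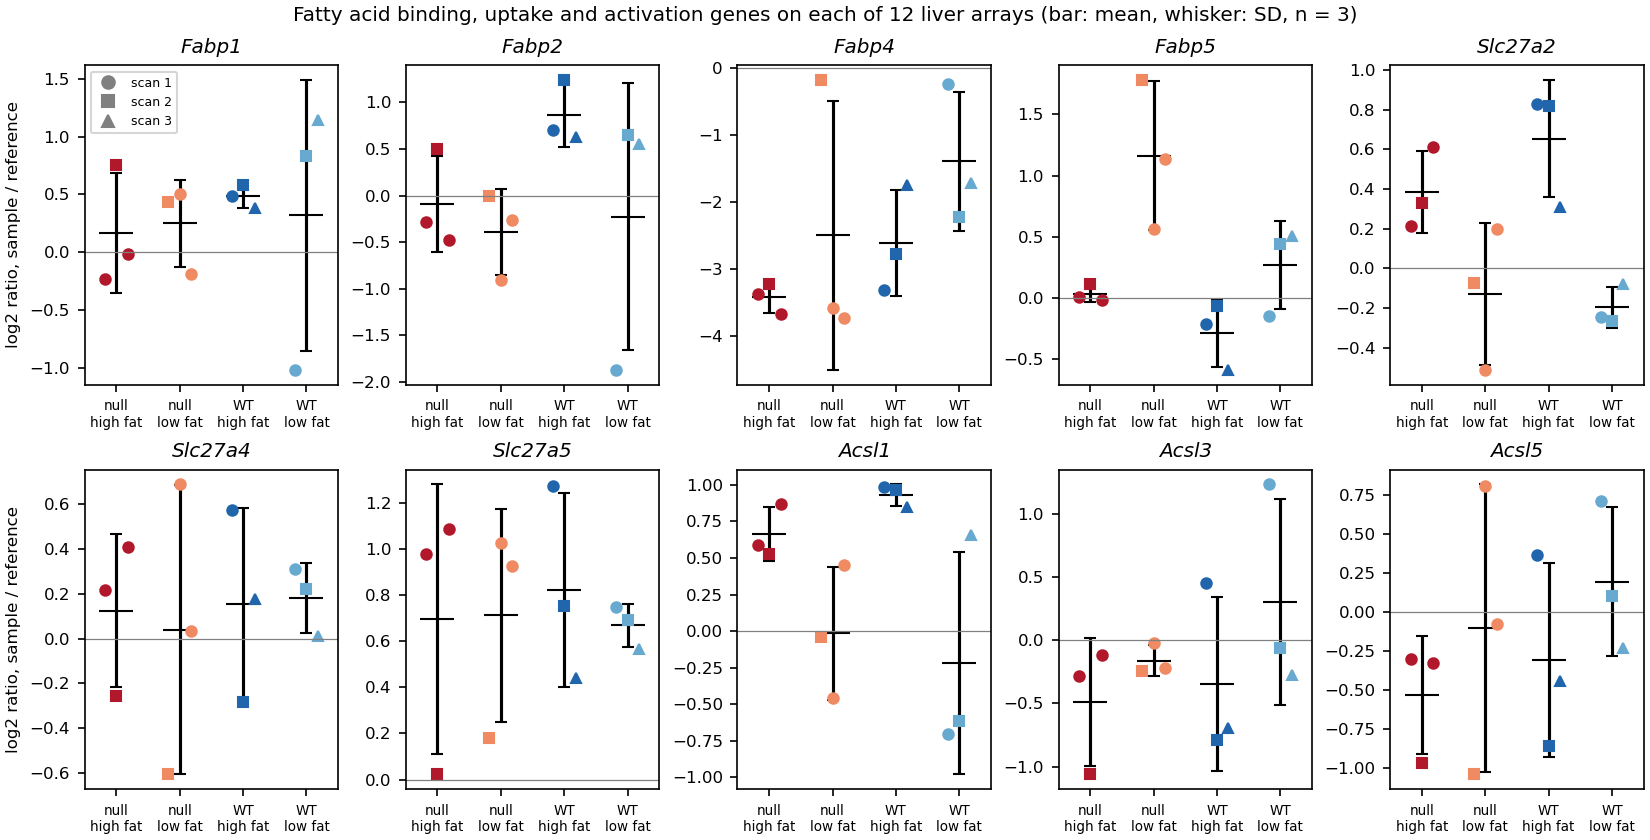
Log2 ratio of sample over reference (vertical) for each gene's brightest measured probe on 12 arrays, by group (horizontal), with points shaped by scan and bars for the mean and whiskers for the SD of 3 arrays. Slc27a2 and Acsl1 sit higher on the high-fat arrays of each genotype, Fabp5 is highest on null low-fat arrays, and Fabp4 has 2 arrays near 0 with the other 10 between -3.73 and -1.72.

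Fabp1, the main fatty acid binding protein of hepatocytes, did not separate the groups. Its log2 ratio (A_51_P487818) was -0.23, 0.75 and -0.01 on null high-fat arrays, 0.44, 0.50 and -0.18 on null low-fat arrays, 0.48, 0.58 and 0.38 on wild-type high-fat arrays and -1.02, 0.83 and 1.15 on wild-type low-fat arrays. The wild-type low-fat arrays held both the lowest and the highest value, and all 4 groups overlapped. The difference of null minus wild-type over both diets was -0.19 (SE 0.34, 95% interval -0.93 to 0.55, limma's adjusted p = 0.943), and that of high minus low fat was 0.04 (SE 0.34, interval -0.70 to 0.78, adjusted p = 1). The reference colour of this probe was saturated on 3 arrays of scan 2, 1 in each of the null low-fat, null high-fat and wild-type high-fat groups, while its sample colour was saturated on none. Without those arrays the differences were -0.36 for genotype and -0.08 for diet, the second with its sign turned.

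Fabp2, known as the binding protein of the intestinal epithelium, was measured in every group of livers. Its log2 ratio (A_51_P313581) was -0.29, 0.50 and -0.48 on null high-fat arrays, against 0.71, 1.24 and 0.63 on wild-type high-fat arrays. These 6 arrays did not overlap, and 2 members, Fabp2 and Fabp5, did not overlap between genotypes at high fat, where 7.75% of all genes did not. The difference was -0.95 (SE 0.57, limma's adjusted p = 1), and it was -1.09 among scan 1 arrays and -0.75 among those of scan 2. A fit that included the scan gave -0.63. A second probe (A_52_P453013) gave -0.76 (SE 0.35). Of 6 markers of intestinal epithelium, 3 were measured, and they differed in sign at high fat. Null minus wild-type was -0.61 for Lgals4, a lectin of gut epithelium (SE 0.35), 0.04 for Apoa4, an apolipoprotein of intestine and liver (SE 0.81), and 0.20 for Alpi, intestinal alkaline phosphatase (SE 0.27), each with limma's adjusted p = 1. Their part in the Fabp2 values was not tested.

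On low-fat arrays Fabp2 varied more. It read -0.01, -0.90 and -0.26 on null low-fat arrays and -1.87, 0.65 and 0.55 on wild-type low-fat arrays, so wild-type low-fat array 1 was below the other 11. High minus low fat was 0.30 in null livers (SE 0.57, adjusted p = 1 by limma) and 1.08 in wild-type livers (SE 0.57, adjusted p = 1). The wild-type difference was 0.26 without wild-type low-fat array 1, so that array carried most of it. The 3 measured intestinal markers did not move as one on that array. Alpi was at its lowest there, -0.47 against -0.42 to 0.58 on the other 11, and Lgals4 was at -0.79 against -1.31 to 0.23. Apoa4 was at its highest, 1.11 against -3.95 to -0.55.

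Fabp4, the fatty acid binding protein of adipocytes and macrophages, stood apart on 2 arrays. Its log2 ratio (A_51_P336833) was -3.37, -3.22 and -3.68 on null high-fat arrays and -0.18, -3.58 and -3.73 on null low-fat arrays. It was -3.30, -2.78 and -1.74 on wild-type high-fat arrays and -0.24, -2.22 and -1.72 on wild-type low-fat arrays. By this probe each array was below the wild-type low-fat reference pool, and array 1 of both low-fat groups was far above the other 10. The second measured probe (A_51_P336830) was also highest there, at 0.15 on null low-fat array 1 and 0.44 on wild-type low-fat array 1, against -3.17 to -1.43 on the others, so by that probe these 2 arrays were above the pool.

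Markers of other cell types moved with those 2 arrays, and not the same ones. Adipoq, which encodes the adipocyte hormone adiponectin, was well above background on null low-fat array 1 alone, with a mean sample signal of 377.2 there against 41.4 to 59.9 on the other 11 arrays. Plin1, the coat protein of adipocyte lipid droplets, had a signal of 158.7 there against 39.7 to 66.8 elsewhere. Retn, another adipocyte marker, was well above background on that array alone by both its probes. Its signals were 87.05 and 88.88 there, against 40.8 to 64.1 and 39.3 to 74.1 elsewhere. Of 7 adipocyte markers listed, 6 had a probe and 2, Cfd and Lipe, were measured, while Lep was well above background on no array. Cfd, an adipocyte protease of the complement system, was at 3.47 on null low-fat array 1 but also at 0.50 to 3.65 on wild-type high-fat arrays, where Fabp4 was low. Lipe, the hormone-sensitive lipase, did not stand out on null low-fat array 1 by log2 ratio. Its 2 measured probes read -0.16 and -0.10 there, against -0.20 to 0.11 and -0.18 to 0.30 on the other 11 arrays. Before normalisation, the mean sample signals of these probes were lowest on that array, at 58.8 and 63.8. They were 64.0 to 116.2 and 74.5 to 135.8 on the other 11 arrays.

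On wild-type low-fat array 1, Adipoq was not well above background, and Marco, a scavenger receptor of macrophages, was at its highest, 0.16 against -3.82 to -0.39 on the other 11 arrays. The median of the 11 Kupffer cell and macrophage markers was 0.16 there, the highest of 12 arrays. That median ran between -0.92 and -0.06 on null high-fat arrays, -0.89 and -0.13 on null low-fat arrays, -1.06 and -0.24 on wild-type high-fat arrays and -1.44 and 0.16 on wild-type low-fat arrays. Markers of stellate cells and endothelium stood out on the same array. The median of 6 stellate cell markers was 0.64 there against -0.73 to -0.04 on the other 11 arrays. Col1a1, a fibrillar collagen chain, was at 0.88 against -4.09 to -1.98, and Dcn, the matrix proteoglycan decorin, at 1.24 against -1.02 to 0.13. Lrat, which stores retinol in quiescent stellate cells, was not among the high ones, at -0.43 against -0.55 to 0.71. The median of 8 endothelial markers was 0.33 there against -0.48 to 0.11. The part of any of these cells in the Fabp4 values was not tested.

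**Figure D3:**
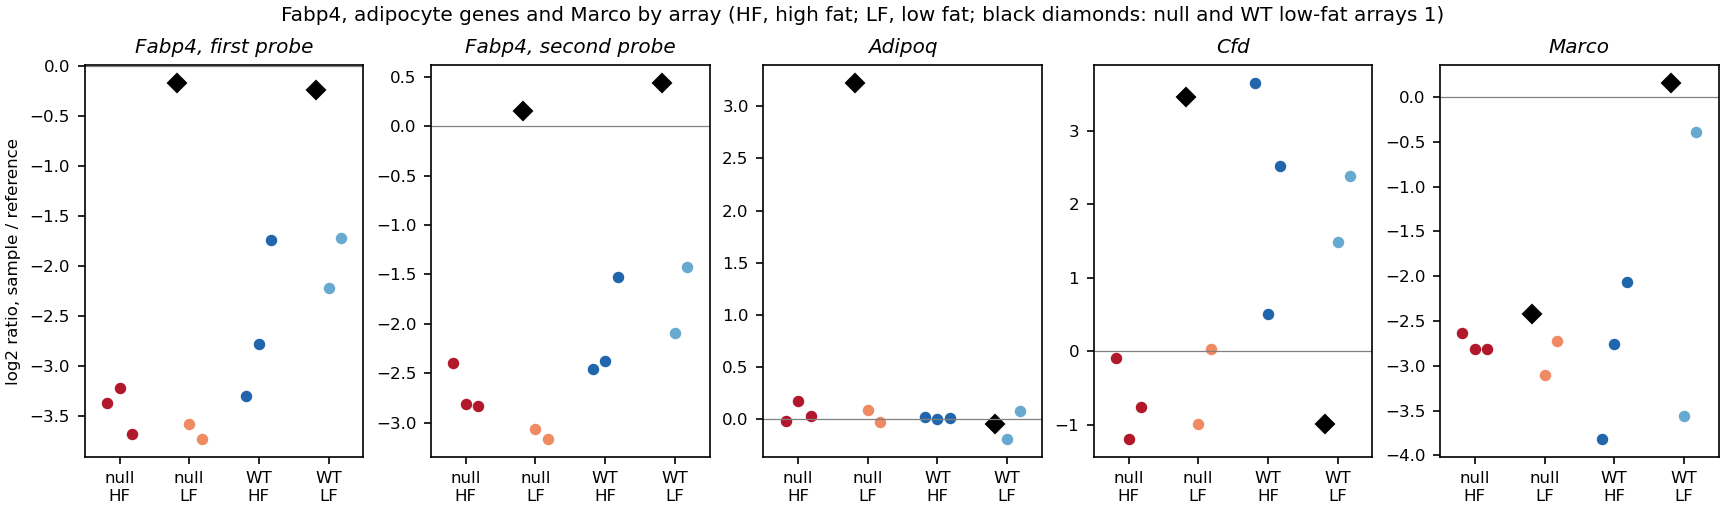
Log2 ratio of sample over reference (vertical) on each array by group (horizontal) for both measured Fabp4 probes, the adipocyte genes Adipoq and Cfd, and the macrophage gene Marco, with array 1 of null low fat and of wild-type low fat as black diamonds. Both arrays top the Fabp4 panels, the first alone stands out for Adipoq at 3.22, and the second tops Marco at 0.16.

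The Fabp4 differences between diets, and that between genotypes at low fat, depended on those arrays. High minus low fat over both genotypes was -1.07 (SE 0.59, limma's adjusted p = 1), and -0.20 without both arrays. In null livers high minus low fat was -0.92 (SE 0.84) and turned to 0.24 without null low-fat array 1. In wild-type livers it was -1.21 (SE 0.84) and -0.64 without wild-type low-fat array 1. Null minus wild-type at low fat was -1.10 (SE 0.84). It became -2.26 without the null array 1, and -0.53 without the wild-type array 1. At high fat, where neither array enters the means, null minus wild-type was -0.81 (SE 0.84). Over both diets null minus wild-type was -0.96 (SE 0.59, adjusted p = 0.742), and -1.25 without both arrays, with limma's adjusted p = 0.0856.

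Fabp5, a binding protein of epidermis, macrophages and adipocytes, was dim in liver. Its log2 ratio (A_51_P387764) was 0.01, 0.11 and -0.02 on null high-fat arrays and 1.78, 0.57 and 1.14 on null low-fat arrays. It was -0.21, -0.06 and -0.59 on wild-type high-fat arrays and -0.15, 0.44 and 0.50 on wild-type low-fat arrays. The 3 null low-fat arrays lay above all 9 others, and the null high-fat and wild-type low-fat arrays overlapped. The reference colour of this probe was well above background on 6 of 12 arrays, 1 of 3 in each null group and 2 of 3 in each wild-type group. The null low-fat ratios 0.57 and 1.14 divide by reference signals of 56.0 and 55.7, which were not well above background. In the sample colour alone, before any normalisation, the mean signal was 182.3, 174.8 and 278.1 on null low-fat arrays, against 73.4, 97.5 and 147.0 on wild-type low-fat arrays, which did not overlap either.

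Null minus wild-type at low fat was 0.90 for Fabp5 (SE 0.29, limma's adjusted p = 0.496), and it was the 1 member whose low-fat arrays did not overlap between genotypes, where 9.34% of all genes did not. The difference was 1.00 within scan 1, between slides, and 1.34 within scan 2, on 1 slide. A fit that included the scan gave 0.96 (limma's adjusted p = 0.189). At high fat it was 0.32 (SE 0.29, adjusted p = 1), and over both diets 0.61 (SE 0.20, adjusted p = 0.356). High minus low fat was -1.13 in null livers (SE 0.29, adjusted p = 1), -0.55 in wild-type livers (SE 0.29, adjusted p = 1) and -0.84 over both genotypes (SE 0.20, adjusted p = 0.375). Null low-fat array 1, where Adipoq, Plin1 and Retn stood out, also had the highest Fabp5 ratio. It was the only null low-fat array in scan 2. Without it, null minus wild-type at low fat was 0.59, and high minus low fat in null livers was -0.82. The part of adipocytes in the Fabp5 values was not tested.

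The size of each Fabp5 difference depends on values near background. On the 9 arrays of the other groups the sample colour of its probe was well above background, but on 0 of the 3 wild-type high-fat arrays, where the mean signal was 41.7 to 47.4. Its means of log2 sample signal, normalised between arrays, were 6.76 in null high-fat livers against 6.54 in wild-type high-fat livers, and 7.17 in wild-type low-fat livers. On this single-colour scale, open to dye bias, the null high-fat level of Fabp5 was 1.16-fold the wild-type high-fat level. Holding the dimmer group at or above each array's lowest signal that cleared background left its mean at 6.54. That floor changed nothing, so 1.16 is not a lower bound. It is only the ratio of the signals as read, since the wild-type high-fat level was not well above background. No bound is given between the diets in wild-type livers either, where this scale gave a larger difference than the ratio did. Agilent's own processed signals gave larger values that passed: 2.98 at high fat (limma's adjusted p = 0.0364) and 2.70 over both diets (0.00412) for null minus wild-type, and -3.01 over both genotypes for high minus low fat (0.00762). The authors' deposited table, made from those processed signals, lists 2.98 for null over wild-type at high fat, 2.42 at low fat and -3.29 for high over low fat in wild-type livers.

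Among the transport proteins, Slc27a2 had the smallest p of any member in any comparison. It encodes a very long-chain acyl-CoA synthetase that also takes up fatty acids. Its log2 ratio (A_52_P154971) was 0.21, 0.33 and 0.61 on null high-fat arrays and -0.08, -0.51 and 0.20 on null low-fat arrays. It was 0.83, 0.82 and 0.31 on wild-type high-fat arrays and -0.25, -0.27 and -0.08 on wild-type low-fat arrays. All 6 high-fat arrays were above all 6 low-fat arrays, with 0.21 against 0.20 at the nearest point. Slc27a2 was the only member of 10 with this separation, which 0.376% of all genes showed.

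High minus low fat over both genotypes was 0.68 for Slc27a2 (SE 0.15, 95% interval 0.35 to 1.01), a 1.60-fold difference that did not pass (limma's adjusted p = 0.282). It was 0.52 in null livers (SE 0.21, adjusted p = 1) and 0.85 in wild-type livers (SE 0.21, adjusted p = 0.844). Each of 5 comparisons within a scan was above 0, from 0.39 to 1.09, though in null livers that of scan 1 was between slides. A fit that included the scan gave 0.68 over both genotypes (limma's adjusted p = 0.165). Null minus wild-type was -0.10 over both diets (SE 0.15, interval -0.43 to 0.23, adjusted p = 0.929).

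The 2 measured probes of Slc27a2 did not give the same picture. A_51_P484551, the dimmer one, gave 0.65 for high minus low fat in wild-type livers (SE 0.26) but -0.01 in null livers (SE 0.26), and 0.32 over both genotypes (SE 0.18, limma's adjusted p = 1 over measured probes). It read 0.81, 0.62 and 0.39 on null low-fat arrays, so these were at the level of its null high-fat arrays, at 0.30, 0.97 and 0.54. For null minus wild-type at low fat it gave 0.66 (SE 0.26), where the brighter probe gave 0.07 (SE 0.21).

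**Figure D4:**
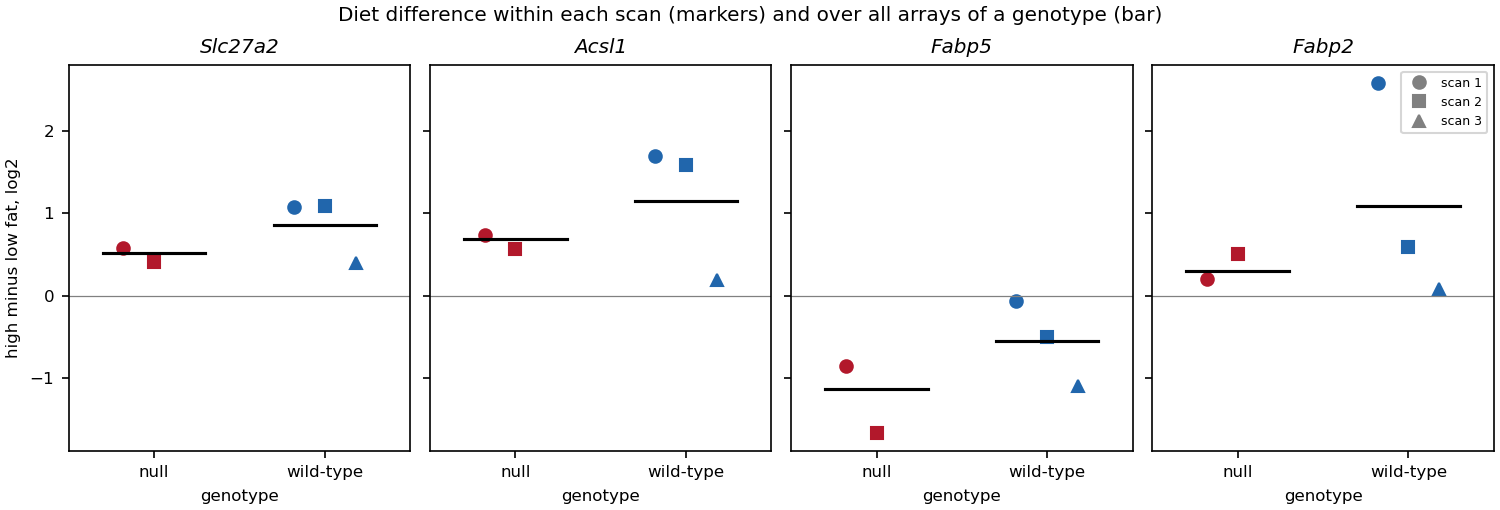
Difference of high minus low fat in log2 ratio (vertical) within each scan (markers) and over all arrays of a genotype (bar), for null and wild-type livers (horizontal), in Slc27a2, Acsl1, Fabp5 and Fabp2. Every marker is above 0 for Slc27a2 (0.39 to 1.09), Acsl1 (0.19 to 1.69) and Fabp2 (0.08 to 2.58), and every marker is below 0 for Fabp5 (-1.67 to -0.06). The null markers of scan 1 compare arrays on different slides.

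Slc27a4, a transporter best known from intestine and skin, read -0.26 to 0.41 on null high-fat arrays, -0.60 to 0.69 on null low-fat arrays, -0.28 to 0.57 on wild-type high-fat arrays and 0.01 to 0.31 on wild-type low-fat arrays (A_52_P61854). All groups overlapped, and the differences over both levels of the other factor were -0.09 for genotype (SE 0.22, 95% interval -0.58 to 0.41) and 0.03 for diet (SE 0.22, interval -0.47 to 0.52). Slc27a5, the liver's bile acyl-CoA synthetase, which also aids fatty acid uptake, read 0.02 to 1.09 on null high-fat arrays, 0.18 to 1.03 on null low-fat arrays, 0.44 to 1.27 on wild-type high-fat arrays and 0.57 to 0.75 on wild-type low-fat arrays (A_51_P289742). Its differences were -0.04 for genotype (SE 0.22, interval -0.54 to 0.45) and 0.07 for diet (SE 0.22, interval -0.43 to 0.56).

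Acsl1, the main long-chain acyl-CoA synthetase of liver, was higher on high-fat arrays of each genotype without passing the test. Its log2 ratio (A_51_P496432) was 0.59, 0.53 and 0.87 on null high-fat arrays and -0.04, -0.46 and 0.45 on null low-fat arrays. It was 0.99, 0.96 and 0.85 on wild-type high-fat arrays and -0.70, -0.62 and 0.66 on wild-type low-fat arrays. Within each genotype the diets did not overlap, and wild-type low-fat array 3 lay well above its 2 companions.

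High minus low fat over both genotypes was 0.92 for Acsl1 (SE 0.24, 95% interval 0.40 to 1.43), a 1.89-fold difference with limma's adjusted p = 0.418. It was 0.68 in null livers (SE 0.33, adjusted p = 1) and 1.15 in wild-type livers (SE 0.33, adjusted p = 0.863). Without wild-type low-fat array 3 the difference over both genotypes was 1.14 and passed, with limma's adjusted p = 0.0478. Within scan 3, the scan of that array, high minus low fat in wild-type livers was 0.19, from 1 array per diet. The other comparisons within a scan, in null or wild-type livers, gave 0.57 to 1.69. Of these, the null one in scan 1 was between slides. A fit that included the scan gave 0.92 over both genotypes (limma's adjusted p = 0.184). The other measured Acsl1 probes gave 0.59 (A_51_P463452, SE 0.36) and 0.62 (A_52_P597618, SE 0.25) over both genotypes, so all 3 probes leaned one way. Null minus wild-type was -0.03 over both diets (SE 0.24, interval -0.55 to 0.49, adjusted p = 0.985).

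Where diets did not overlap within a genotype, the members were Slc27a2, Acsl1 and Fabp5 in null livers and Slc27a2 and Acsl1 in wild-type livers. Those are 3 of 10 against 4.84% of all genes, and 2 of 10 against 7.23%, by each gene's brightest probe. Other measured probes differed. The diets overlapped in both genotypes by Slc27a2 probe A_51_P484551 and Acsl1 probe A_51_P463452. By Acsl1 probe A_52_P597618 they overlapped in null livers alone. Fabp2 probe A_52_P453013 went the other way, without overlap in null livers. Over the 12 arrays Acsl1 and Slc27a2 had a Pearson r of 0.87, a description over arrays that share scans and 1 reference pool. The interaction, high fat minus low fat in the genotype difference, was -0.47 for Acsl1 (SE 0.47), -0.34 for Slc27a2 (SE 0.30) and -0.57 for Fabp5 (SE 0.40), each with limma's adjusted p = 1, so a difference between genotypes in their diet responses was not detectable at this precision.

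Acsl3, a synthetase of lipid droplets and the endoplasmic reticulum, read -0.29, -1.06 and -0.12 on null high-fat arrays, -0.25, -0.02 and -0.22 on null low-fat arrays, 0.45, -0.79 and -0.69 on wild-type high-fat arrays and 1.23, -0.06 and -0.27 on wild-type low-fat arrays (A_51_P511560). Wild-type low-fat array 1 was the highest of the 12, and all groups overlapped. High minus low fat was -0.49 over both genotypes (SE 0.30, adjusted p = 1 by limma). Acsl5, a synthetase of mitochondria and the endoplasmic reticulum tied to triglyceride synthesis, read -0.30, -0.97 and -0.33 on null high-fat arrays, -1.04, 0.81 and -0.07 on null low-fat arrays, 0.37, -0.86 and -0.44 on wild-type high-fat arrays and 0.71, 0.11 and -0.23 on wild-type low-fat arrays (A_52_P593037). The arrays of scan 2 were the lowest in both high-fat groups and in the null low-fat group. Its high minus low fat difference was -0.47 (SE 0.32, adjusted p = 1), so Acsl1 on one side and Acsl3 and Acsl5 on the other had point estimates of opposite sign.

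**Figure D5:**
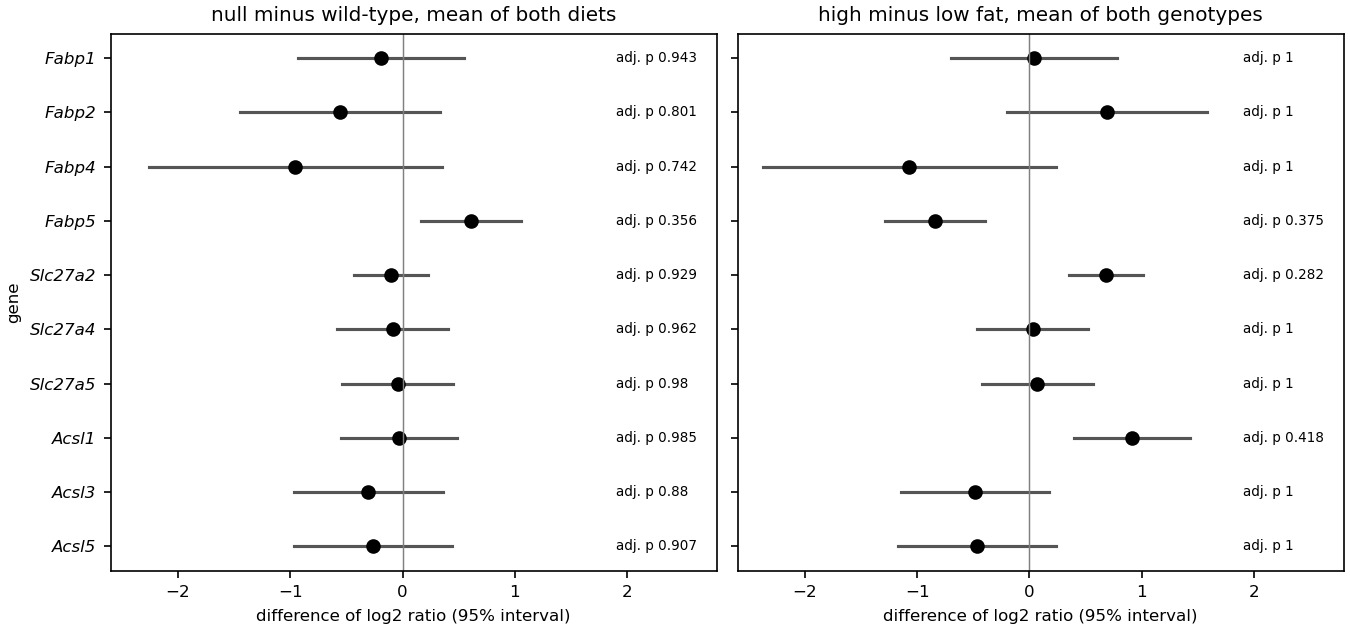
Difference in log2 ratio (horizontal, points, with 95% intervals as lines) for each of the 10 genes (vertical), null minus wild-type over both diets at left and high minus low fat over both genotypes at right, with limma's adjusted p beside each. At left only the interval of Fabp5 leaves out 0, and at right those of Fabp5, Slc27a2 and Acsl1 do, while no adjusted p is under 0.282.

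Over both diets, 9 of 10 members were lower in null than in wild-type livers by point estimate, with Fabp5 the exception, and their median difference was -0.15 against 0.00 over all genes. Of all genes 48.9% were higher. The direction of several is unsettled: with median centring in place of loess, Fabp1, Slc27a2, Slc27a4, Slc27a5, Acsl1, Acsl3 and Acsl5 were higher in null livers. Over both genotypes, 6 of 10 members were higher on the high-fat diet, with a median of 0.03 against 0.01 over all genes, 51.8% of which were higher.

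The neighbours of these genes in the pathway were read from 5 lists. In the genotype comparison over both diets, Pparg was the 1 gene past the threshold. Pparg, a nuclear receptor of fat storage that activates Fabp4 and Cd36 in adipocytes, fell by 1.74 on the log2 scale in null livers (SE 0.21, limma's adjusted p = 0.00561). It read -2.37 to -1.36 on null high-fat arrays and -2.15 to -1.78 on null low-fat arrays, against -0.61 to -0.25 on wild-type high-fat arrays and -0.52 to 0.59 on wild-type low-fat arrays. The other 11 measured nuclear receptors and regulators did not pass, Ppara among them. For Nr1i3, the xenobiotic receptor CAR, high minus low fat over both genotypes was 1.02 (SE 0.30, adjusted p = 0.547).

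Of other fatty acid uptake proteins, 0 of 9 measured passed in either direction. Cd36, a fatty acid translocase, averaged -2.59 in null livers and -0.53 in wild-type livers, a difference of -2.06 (SE 0.44, limma's adjusted p = 0.111). Mfsd2a, a carrier of lysophospholipids, differed by -1.22 (SE 0.31, adjusted p = 0.20). Of proteins that pass acyl groups into mitochondria and peroxisomes, 0 of 9 passed for genotype over both diets, where 0.288% of all genes did. By point estimate 9 of 9 had a lower mean in null livers, while 48.9% of all genes were higher there. Their median difference was -0.26 against 0.00 over all genes. The largest of these differences were for Crat, carnitine acetyltransferase, at -1.25 (SE 0.29, adjusted p = 0.162) and Abcd2, a peroxisomal transporter, at -0.83 (SE 0.20, adjusted p = 0.171). Median centring turned the direction of several members, and its effect on these 9 genes is not given here.

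Of the other acyl-CoA synthetases, 0 of 11 measured passed in any comparison. The smallest p values belonged to Acss3, a mitochondrial short-chain synthetase, with null minus wild-type of -0.44 (SE 0.12, limma's adjusted p = 0.246), and Acsm5, a medium-chain synthetase, with high minus low fat of 0.76 (SE 0.22, adjusted p = 0.523). Of the other lipid binding proteins and acyl-CoA carriers, 0 of 8 measured passed. Scp2, a peroxisomal sterol carrier and thiolase, differed by 0.37 for null minus wild-type (SE 0.14, adjusted p = 0.439) and by 0.37 for high minus low fat (SE 0.14, adjusted p = 0.787). Across these lists the diet comparisons held 0 genes past the threshold.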

How the data were processed

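Livers were measured on 12 two-colour arrays. The deposited intensity values are mean pixel signals and local backgrounds of each spot from Agilent Feature Extraction, spot analysis version 9.1.3.1, as the file headers say. The same software subtracted background and normalised the dyes for the deposited processed intensities and log10 ratios. The log2 differences between groups in the authors' deposited table were made with limma per the labels, with no version given. Here, mean signals were corrected by normexp (offset 50) and log2 ratios of Cy3 over Cy5 normalised by loess within arrays, with limma 3.58.1 in R 4.3.3. Spots marked non-uniform (120) were left out, repeated spots averaged, and each gene was read from its brightest measured probe. A limma fit to all 12 arrays gave each group its own mean, with Benjamini-Hochberg adjustment over 14911 genes and a threshold of 0.05. The fit was tried on simulated data for the diet comparison over both genotypes alone. Noise there was independent between arrays, without the likeness by scan of these data, so it cannot show how that likeness affects the fit. Members and lists were chosen with earlier results of these data known. Named pathway genes were those past the threshold and up to 3 per list with the smallest p, of which selected ones are printed. Alternatives covered background, normalisation, dim probes, probe choice, scan, slide, replicate block and each array left out. Replicate numbers did not pair arrays across all groups, but in wild-type livers they matched the scan and slide of both diets. The main fit did not use that match.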

Additional observations from a re-analysis of the deposited data

How the results depend on the processing

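Of 396 member differences under other settings, 368 kept their direction and their side of the threshold, 25 turned sign and 3 newly passed. The 3 were Fabp5 under Agilent's processed signals, for null minus wild-type at high fat (2.98) and over both diets (2.70) and for high minus low fat (-3.01), so 1 member passed in each of these. Those that turned were between -0.30 and 0.07 as reported, except Fabp4 for diet in null livers (-0.92), and the cause was not tested. For null minus wild-type over both diets, median centring gave 0.28 for Fabp1, 0.36 for Slc27a2, 0.14 for Slc27a4, 0.41 for Slc27a5, 0.42 for Acsl1, 0.043 for Acsl3 and 0.18 for Acsl5. Raw signals with loess gave 0.029 for Slc27a4, 0.0078 for Slc27a5 and 0.011 for Acsl1, and Agilent's signals 0.16 for Slc27a4 and 0.0067 for Slc27a5. The mean of all probes gave 0.11 for Slc27a2 and 0.012 for Acsl1, scan as a block 0.11 for Fabp1 and 0.16 for Acsl1, and slide as a random block 0.051 for Acsl1. Chosen after seeing the data, leaving out array 1 of null low fat and of wild-type low fat gave 0.11 for Slc27a4, 0.11 for Slc27a5 and 0.10 for Acsl5. The same for high minus low fat gave -0.25 for Fabp1, -0.10 for Slc27a4 and -0.045 for Slc27a5, and 0.24 for Fabp4 in null livers, and leaving out the arrays with a saturated Fabp1 reference gave -0.083 for Fabp1.

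With each array left out in turn, 397 of 420 member differences stayed the same, 22 turned and 1, Acsl1 for diet, passed (1.14). For null minus wild-type over both diets the ranges were -0.53 to 0.015 for Fabp1, -0.25 to 0.075 for Slc27a4, -0.14 to 0.13 for Slc27a5 and -0.15 to 0.19 for Acsl1. For high minus low fat they were -0.29 to 0.25 for Fabp1, -0.13 to 0.19 for Slc27a4, -0.064 to 0.24 for Slc27a5 and 0.79 to 1.14 for Acsl1, and -1.54 to 0.24 for Fabp4 in null livers. Of members, 0 to 1 passed for diet.

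Counts of all genes moved more. For null minus wild-type at low fat, 3 genes passed, 11 with raw signals, 0 with median centring, 51 with Agilent's signals, 1 with no filter on dim probes, 5 with probes bright on all 12 arrays, 14 with scan as a block, 0 without both arrays 1, 0 with the 2 groups alone and 1 to 26 with an array left out. At high fat 2 passed, and the counts were 10, 0, 50, 1, 1 and 5 under the first 6 of these, 14 with slide as a random block and 0 to 5 with an array left out. For diet in wild-type livers 1 passed, and 2 with raw signals, 0 with median centring, 5 with Agilent's signals, 0 with no filter, 0 with scan as a block, 2 with slide, 0 with the 2 groups alone and 0 to 1 with an array left out. For diet in null livers 1 passed, 0 with median centring, 3 with the 2 groups alone and 0 to 1 with an array left out. Over both diets 43 passed for genotype, and 113 with raw signals, 1 with median centring, 239 with Agilent's signals, 23 with no filter, 94 with scan as a block, 83 with slide, 113 without both arrays 1 and 19 to 113 with an array left out. Over both genotypes 5 passed for diet, and 15, 0 and 31 with raw signals, median centring and Agilent's signals, 10 with slide and 1 to 11 with an array left out.

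Taken over all groups, arrays of the same replicate number did not deviate together (median r -0.02, lowest -0.58). Arrays of the same scan had a median r of 0.38. In wild-type livers, however, the high-fat and low-fat arrays of each replicate number shared a scan and a slide. In null livers they shared no slide. The main fit did not pair the wild-type arrays. With a replicate block the counts were 1 and 1 for genotype at low and high fat, 0 and 1 for diet in wild-type and null livers, 25 for genotype and 3 for diet over both levels of the other factor, and 0 members passed.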

Other observations

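By Pearson correlation over the 12 arrays, given as a description with no test, the genes most like Fabp5 were Mgat5 (0.92), Acpp (0.92) and Adprh (0.91). Those most like Slc27a2 were Oat (0.88), Tpmt (0.88) and Decr2 (0.87), and those most like Acsl1 were Amy1 (0.94), Eva1a (0.93) and Vwa8 (0.93). The arrays share 1 reference pool and 3 scans. Within the members, Acsl5 and Slc27a4 had an r of 0.85, and Acsl3 and Acsl5 of 0.78.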
